A study of Homo sapiens with 18 samples.

Results

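The HOX genes of the 4 human clusters were described in bulk RNA from cerebral organoids, suspension cultures of neural tissue derived from pluripotent stem cells. They were found by symbol in the deposited count and TPM tables, where 38 of the 53853 rows were taken as members, 10 in HOXA, 10 in HOXB, 9 in HOXC and 9 in HOXD. TPM is a level per transcript length, scaled to a sum of 1000000 in each library, so it can be set beside that of another gene. On GRCh38, in the GENCODE annotation, the HOXA members lay on chr7:27100354-27200091, the HOXB members on chr17:48528526-48728750, the HOXC members on chr12:53938831-54056030 and the HOXD members on chr2:176092721-176190907, with HOXA and HOXB on the minus strand and HOXC and HOXD on the plus strand.

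All organoids came from H9, a human embryonic stem cell line, and were made with a ventral forebrain protocol. Induction medium with inhibitors of BMP, TGF-beta and WNT signalling came first. From day 10 the organoids received SHH, a ventralizing morphogen, at 100 ng/mL together with purmorphamine, which activates its pathway, at 1 µM, and later a maturation medium with vitamin A. At day 83 dosing began, daily for 1 week, and the last dose lasted 1 h. The 6 groups of 3 libraries were dopamine with the inhibitor, dopamine, cocaine with the inhibitor, cocaine, control with the inhibitor, and control. The dose was 1 µM for dopamine and for cocaine. Every group received 100 µM ascorbic acid, an antioxidant, which was the whole of the control treatment. Acetylcysteine at 100 µM, added before the dose, served as inhibitor of reactive oxygen species. The labels give no number that joins libraries of different groups, and 1 to 3 below only names the libraries of a group. Separate cultures are not stated for the 3 libraries of a group. A p-value here thus sets a difference between groups against the spread of these samples only, and that spread may be technical.

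HOX genes encode homeodomain transcription factors that give cells along the head-to-tail axis their position. Within a cluster they are numbered by paralog group, and genes at the low-numbered end are switched on earlier and further forward than those at the high-numbered end, an order known as collinearity. In the neural tube of vertebrates the forebrain and midbrain lack HOX expression, paralog groups 1 to 4 mark the hindbrain and upper neck, groups 5 to 9 the cervical to thoracic spinal cord, and groups 10 to 13 the lumbar and sacral cord. Retinoic acid and WNT and FGF signals induce them, CDX factors act on the middle of the clusters, and Polycomb complexes keep silent genes closed.

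The organoids carried a HOX signal in all 18 libraries. Paralog groups 2 and 3 summed to 34.7 to 127 TPM and to 20.4 to 95.2 TPM per library, while groups 5 to 9 together ran from 4.8 to 436 TPM, and they differed by up to 24.2-fold among libraries given the same treatment. Groups 10 and 11 stood out in a single library, cocaine 2. Of the 26 members that could be tested, 0 were called in any of 7 comparisons between treatments at an adjusted p under 0.05 in edgeR, beside 0% to 4.33% of all genes tested. The highest number at an unadjusted p under 0.05 in a comparison was 4. For counts at an unadjusted p, here and below, the share of all genes was not taken. DESeq2 called 1 member, for cocaine against control, beside 1651 of 18913 genes.

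**Figure D1:**
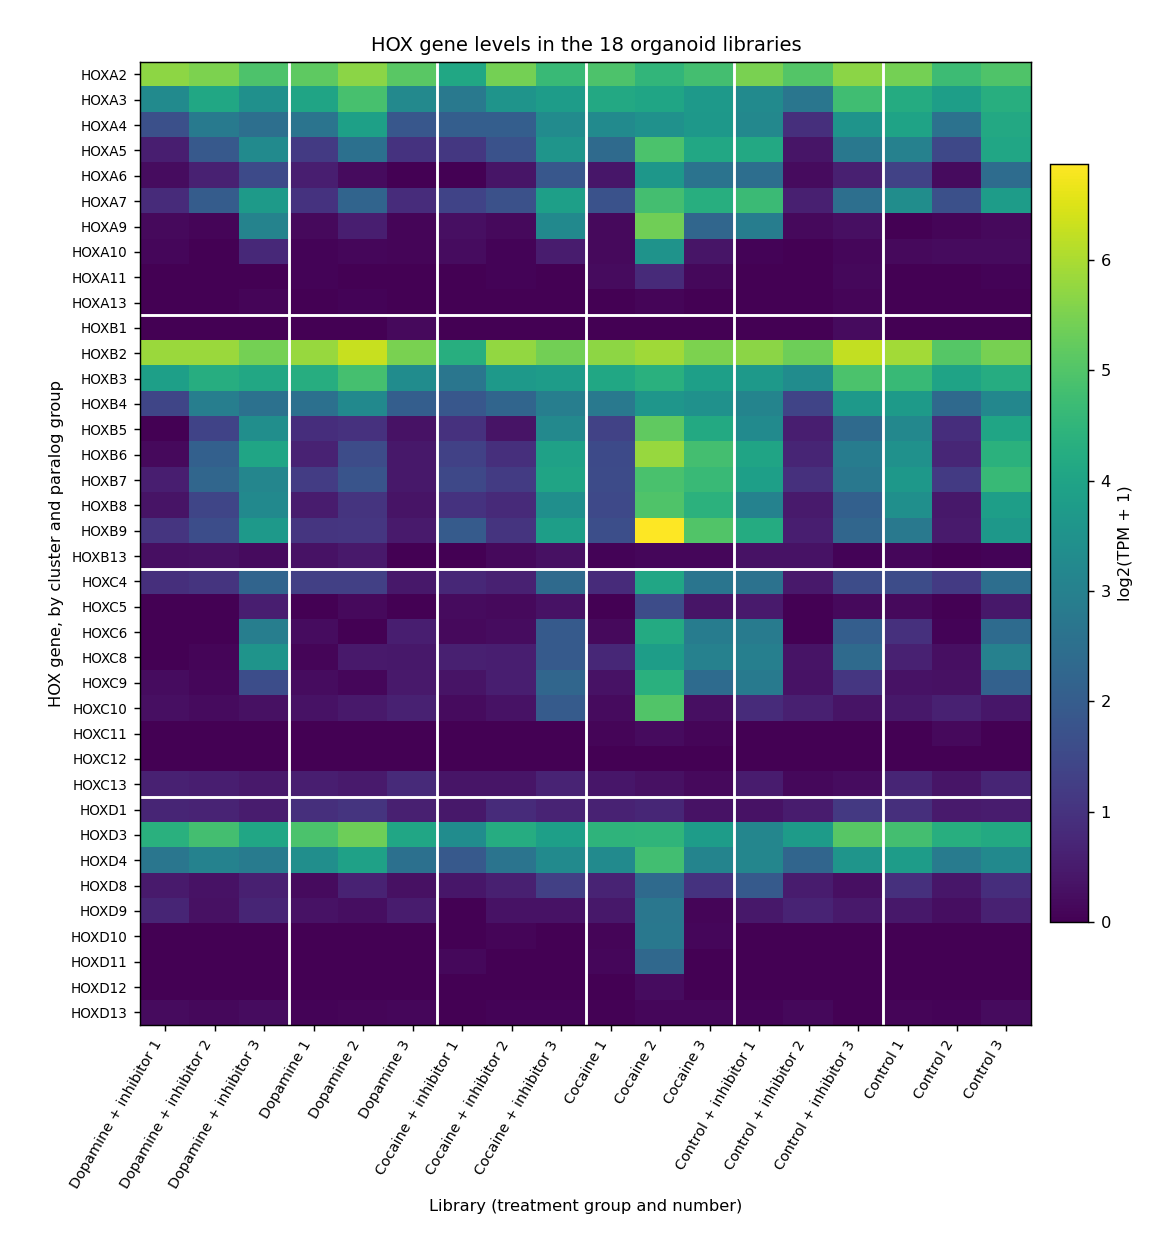
Level of the 38 HOX genes (rows, by cluster and paralog group) in the 18 libraries (columns, 3 per treatment group) as log2(TPM + 1), with white lines between clusters and between groups. The rows of HOXA2, HOXB2, HOXB3 and HOXD3 are bright in every column, while those of paralog groups 5 to 9 are bright in some columns of a group and dark in others, and HOXC10, HOXD10 and HOXD11 are bright in cocaine 2.

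The count table held 23789195 to 30327891 reads per library. The labelled tissue was checked against forebrain genes: OTX2, a forebrain and midbrain factor, averaged 109 TPM, SIX3 88.1 TPM, PAX6 63.1 TPM, DLX1 50.3 TPM and LHX2 34.1 TPM. LHX8, a marker of the ventral telencephalon, was under 0.1 TPM in every library and NKX2-1 reached 0.1 to 4.1 TPM. Genes of the hindbrain and cord were present beside them, with LHX1 at a mean of 72.9 TPM, GATA3 at 54.2 TPM, GBX2 at 51.7 TPM and LBX1 at 35.8 TPM. LHX5, PAX8, GATA2, TAL1 and PAX2 were at means of 49.9, 33.8, 24.5, 21.1 and 17.5 TPM. In bulk RNA, fewer cells of a type and less RNA per cell cannot be told apart.

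Paralog group 2 held the highest HOX levels outside cocaine 2. HOXB2, which is required for facial motor neurons in mice, was at 55.4, 56.1 and 41.9 TPM with dopamine and inhibitor, 55.1, 76.8 and 43.6 TPM with dopamine, 18.7, 52.5 and 41.3 TPM with cocaine and inhibitor, 51.1, 57.7 and 44.8 TPM with cocaine, 49.9, 39.6 and 73.7 TPM in control with inhibitor, and 59.6, 32.1 and 42.7 TPM in control. HOXA2, the selector of the hindbrain's rhombomere 2 and of the second pharyngeal arch, was at 51.3, 44.4 and 30.01 TPM with dopamine and inhibitor, 35.1, 49.9 and 33.2 TPM with dopamine, 15.99, 42.3 and 24.3 TPM with cocaine and inhibitor, 29.8, 21.9 and 27.2 TPM with cocaine, 44.01, 31.6 and 49.9 TPM in control with inhibitor, and 42.2, 25.3 and 30.6 TPM in control. Both genes were present in each of the 18 libraries, with the lowest value in cocaine + inhibitor 1. In both, the 2 groups of each of the 7 comparisons overlapped. Among other pairs of groups, HOXA2 with cocaine, at 21.9 to 29.8 TPM, lay below every library with dopamine, dopamine and inhibitor, and control with inhibitor.

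In paralog group 3, HOXB3, which patterns hindbrain motor neurons, was at 13.6, 18.2 and 16.2 TPM with dopamine and inhibitor, 18.2, 27.6 and 9.04 TPM with dopamine, 5.43, 12.1 and 12.8 TPM with cocaine and inhibitor, 15.97, 19.6 and 13.7 TPM with cocaine, 11.99, 9.16 and 29.2 TPM in control with inhibitor, and 23.5, 14.8 and 17.8 TPM in control. HOXA3, needed for the thymus, parathyroid and carotid body in mice, was at 8.76, 16.1 and 9.88 TPM with dopamine and inhibitor, 15.2, 28.02 and 8.45 TPM with dopamine, 5.84, 10.8 and 12.9 TPM with cocaine and inhibitor, 16.5, 15.3 and 12.2 TPM with cocaine, 8.74, 5.52 and 25.9 TPM in control with inhibitor, and 17.7, 13.3 and 18.6 TPM in control. HOXD3, which acts with HOXA3 in neck vertebrae of mice, was at 19.6, 26.8 and 15.6 TPM with dopamine and inhibitor, 29.3, 39.6 and 15.8 TPM with dopamine, 9.17, 17.9 and 13.5 TPM with cocaine and inhibitor, 21.1, 21.3 and 12.8 TPM with cocaine, 7.88, 12.7 and 32.8 TPM in control with inhibitor, and 26.8, 18.9 and 16.8 TPM in control. HOXA3 and HOXD3 were highest in dopamine 2 and HOXB3 in control + inhibitor 3. Dopamine 3, at 9.04 TPM of HOXB3, lay below all control libraries, while dopamine 2, at 27.6 TPM, lay above them.

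Paralog group 4 was lower and more uneven. HOXA4, a gene of the neck vertebrae, was at 2.17, 6.15 and 4.73 TPM with dopamine and inhibitor, 5.19, 13.99 and 2.63 TPM with dopamine, 3.15, 3.16 and 8.95 TPM with cocaine and inhibitor, 8.7, 10.01 and 11.7 TPM with cocaine, 8.21, 0.9 and 10.8 TPM in control with inhibitor, and 14.8, 4.98 and 16.8 TPM in control. HOXB4, known for the expansion of blood stem cells, was at 1.71, 6.71 and 4.86 TPM with dopamine and inhibitor, 4.79, 8.64 and 3.11 TPM with dopamine, 2.61, 3.74 and 6.61 TPM with cocaine and inhibitor, 5.88, 11.2 and 10.1 TPM with cocaine, 7.49, 1.65 and 12.03 TPM in control with inhibitor, and 12.3, 4.05 and 8.1 TPM in control. HOXD4, whose front border in the mouse hindbrain is set by retinoic acid, was at 5.42, 7.29 and 6.27 TPM with dopamine and inhibitor, 9.55, 14.3 and 4.78 TPM with dopamine, 2.81, 5.18 and 8.76 TPM with cocaine and inhibitor, 8.66, 26.4 and 7.5 TPM with cocaine, 7.82, 3.74 and 10.9 TPM in control with inhibitor, and 12.8, 6.24 and 8.59 TPM in control. Control + inhibitor 2 was lowest for HOXA4 and HOXB4. Cocaine 2 was highest for HOXD4 and for HOXC4. HOXC4 was at 0.91, 1.04 and 3.62 TPM with dopamine and inhibitor, 1.48, 1.46 and 0.36 TPM with dopamine, 0.69, 0.54 and 4.21 TPM with cocaine and inhibitor, 0.8, 15.8 and 5.36 TPM with cocaine, 5.05, 0.39 and 2.0 TPM in control with inhibitor, and 2.04, 1.26 and 4.57 TPM in control. Within each of the 6 groups, the summed TPM of the 11 members of paralog groups 1 to 4 differed by 1.37-fold to 2.35-fold between the highest and the lowest library.

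Paralog group 1 was nearly silent. HOXD1, which acts in pain-sensing neurons of mice, had 0.25 to 1.21 TPM, and HOXB1, a gene of rhombomere 4, had 2 reads in all 18 libraries together.

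In the middle of the HOXB cluster, libraries of the same group differed widely. HOXB5, which acts in the enteric nervous system, was at 0, 1.58 and 9.57 TPM with dopamine and inhibitor, 0.85, 0.98 and 0.26 TPM with dopamine, 0.97, 0.28 and 8.3 TPM with cocaine and inhibitor, 1.55, 35.8 and 16.9 TPM with cocaine, 8.72, 0.5 and 4.14 TPM in control with inhibitor, and 8.13, 0.88 and 15.3 TPM in control. HOXB6 was at 0.12, 3.29 and 15.4 TPM with dopamine and inhibitor, 0.58, 2.0 and 0.37 TPM with dopamine, 1.52, 0.91 and 14.1 TPM with cocaine and inhibitor, 1.93, 55.2 and 27.3 TPM with cocaine, 15.2, 0.64 and 6.32 TPM in control with inhibitor, and 10.1, 0.66 and 20.0 TPM in control. HOXB7 was at 0.49, 3.78 and 7.9 TPM with dopamine and inhibitor, 1.31, 2.42 and 0.35 TPM with dopamine, 1.83, 1.3 and 15.1 TPM with cocaine and inhibitor, 1.96, 28.8 and 24.1 TPM with cocaine, 13.7, 0.94 and 5.72 TPM in control with inhibitor, and 11.6, 1.26 and 23.6 TPM in control. In each of these genes cocaine 2 was highest, cocaine 3 next and control 3 after it, while cocaine 1 was at 1.55 to 1.96 TPM. HOXB8, which in mice acts in spinal sensory circuits and in a lineage of microglia, was at 0.29, 1.69 and 8.63 TPM with dopamine and inhibitor, 0.45, 1.03 and 0.29 TPM with dopamine, 1.01, 0.75 and 9.75 TPM with cocaine and inhibitor, 1.86, 30.4 and 20.1 TPM with cocaine, 7.22, 0.42 and 3.28 TPM in control with inhibitor, and 9.7, 0.36 and 13.3 TPM in control. HOXB9, a thoracic gene, was at 1.09, 2.07 and 12.2 TPM with dopamine and inhibitor, 1.09, 1.13 and 0.4 TPM with dopamine, 2.95, 1.03 and 13.3 TPM with cocaine and inhibitor, 2.14, 115 and 30.96 TPM with cocaine, 17.6, 0.48 and 3.84 TPM in control with inhibitor, and 5.83, 0.41 and 11.7 TPM in control. HOXB9 thus spanned 0.4 TPM in dopamine 3 to 115 TPM in cocaine 2, and differed within the cocaine group by 53.9-fold and within the control group by 28.6-fold.

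In the HOXA cluster many of the same libraries stood high. HOXA5, which in mice maintains phrenic motor neurons, was at 0.49, 2.77 and 8.66 TPM with dopamine and inhibitor, 1.24, 4.76 and 1.01 TPM with dopamine, 1.16, 2.3 and 10.98 TPM with cocaine and inhibitor, 4.13, 29.1 and 16.3 TPM with cocaine, 16.7, 0.31 and 5.67 TPM in control with inhibitor, and 7.03, 1.78 and 15.8 TPM in control. HOXA6 was at 0.17, 0.54 and 1.92 TPM with dopamine and inhibitor, 0.48, 0.16 and 0 TPM with dopamine, 0, 0.32 and 2.67 TPM with cocaine and inhibitor, 0.33, 11.3 and 5.11 TPM with cocaine, 4.55, 0.16 and 0.53 TPM in control with inhibitor, and 1.54, 0.15 and 4.4 TPM in control. HOXA7 was at 0.8, 2.99 and 12.3 TPM with dopamine and inhibitor, 1.02, 3.59 and 0.83 TPM with dopamine, 1.61, 2.26 and 13.7 TPM with cocaine and inhibitor, 2.33, 27.2 and 18.8 TPM with cocaine, 24.6, 0.51 and 4.72 TPM in control with inhibitor, and 9.37, 2.19 and 12.9 TPM in control. Cocaine 2, cocaine 3, control + inhibitor 1, control 3, cocaine + inhibitor 3 and dopamine + inhibitor 3 were above every other library for each of HOXA5, HOXA6 and HOXA7. HOXA9, a thoracic gene also known as a driver of acute leukaemia, was at 0.13, 0.07 and 7.35 TPM with dopamine and inhibitor, 0.12, 0.49 and 0.06 TPM with dopamine, 0.21, 0.12 and 8.56 TPM with cocaine and inhibitor, 0.13, 40.7 and 3.78 TPM with cocaine, 6.46, 0.13 and 0.21 TPM in control with inhibitor, and 0, 0.06 and 0.13 TPM in control. Here control 3 had 0.13 TPM, at the level of the low libraries, although its HOXA7 was 12.9 TPM. HOXA9 was at least 1 TPM in 5 libraries, 1 from each inhibitor group and 2 from the cocaine group.

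The HOXC members were high in many of the same libraries. HOXC6, a brachial gene, was at 0, 0 and 6.6 TPM with dopamine and inhibitor, 0.17, 0 and 0.48 TPM with dopamine, 0.13, 0.17 and 2.86 TPM with cocaine and inhibitor, 0.12, 17.3 and 6.42 TPM with cocaine, 6.21, 0 and 3.17 TPM in control with inhibitor, and 0.92, 0.05 and 4.31 TPM in control. HOXC8, which sets motor pools for the forelimb in chick and mouse, was at 0, 0.06 and 10.6 TPM with dopamine and inhibitor, 0.06, 0.39 and 0.36 TPM with dopamine, 0.51, 0.5 and 2.86 TPM with cocaine and inhibitor, 0.7, 13.1 and 7.03 TPM with cocaine, 6.77, 0.28 and 4.16 TPM in control with inhibitor, and 0.54, 0.21 and 7.02 TPM in control. HOXC9, which in mice sets the thoracic motor columns, was at 0.17, 0.09 and 2.1 TPM with dopamine and inhibitor, 0.17, 0.08 and 0.39 TPM with dopamine, 0.29, 0.49 and 3.78 TPM with cocaine and inhibitor, 0.26, 19.6 and 4.31 TPM with cocaine, 6.08, 0.25 and 1.11 TPM in control with inhibitor, and 0.27, 0.24 and 3.39 TPM in control. The library with the highest HOXC8 after cocaine 2 was dopamine + inhibitor 3. HOXC5, which acts with HOXA5 in phrenic neurons of mice, reached 2.02 TPM in cocaine 2 and at most 0.5 TPM elsewhere. In the HOXD cluster, HOXD8 was at most 2.87 TPM outside cocaine 2, where it was at 4.21 TPM. HOXD9 was at 0.64, 0.23 and 0.65 TPM with dopamine and inhibitor, 0.27, 0.2 and 0.44 TPM with dopamine, 0, 0.27 and 0.25 TPM with cocaine and inhibitor, 0.36, 5.64 and 0.07 TPM with cocaine, 0.35, 0.62 and 0.38 TPM in control with inhibitor, and 0.36, 0.2 and 0.55 TPM in control. Unlike HOXB9, HOXD9 was low in cocaine 3, at 0.07 TPM, and in control + inhibitor 1, at 0.35 TPM.

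Of the 12 members of paralog groups 10 to 13, 3 reached 5 TPM, and in cocaine 2 only. Their summed level was 52.6 TPM in cocaine 2, 4.23 TPM in cocaine + inhibitor 3 and 0.74 to 1.74 TPM in the other 16 libraries. HOXC10, a gene of lumbar motor neurons, was at 0.21, 0.15 and 0.24 TPM with dopamine and inhibitor, 0.26, 0.39 and 0.55 TPM with dopamine, 0.15, 0.26 and 2.91 TPM with cocaine and inhibitor, 0.14, 30.9 and 0.22 TPM with cocaine, 0.8, 0.53 and 0.29 TPM in control with inhibitor, and 0.35, 0.56 and 0.33 TPM in control. It rested on 427 reads in cocaine 2 and on 48 reads in cocaine + inhibitor 3. HOXA10, which in mice sets the lumbar vertebrae and acts in the uterus, was at 0.08, 0 and 0.73 TPM with dopamine and inhibitor, 0.04, 0.08 and 0.07 TPM with dopamine, 0.18, 0.04 and 0.45 TPM with cocaine and inhibitor, 0.13, 10.5 and 0.31 TPM with cocaine, 0.04, 0 and 0.09 TPM in control with inhibitor, and 0.13, 0.15 and 0.16 TPM in control. HOXD10, a lumbar motor neuron gene, was at 0, 0 and 0 TPM with dopamine and inhibitor, 0, 0 and 0 TPM with dopamine, 0, 0.07 and 0 TPM with cocaine and inhibitor, 0.07, 5.66 and 0.08 TPM with cocaine, 0, 0 and 0 TPM in control with inhibitor, and 0, 0 and 0 TPM in control. HOXD11, which acts with HOXA11 in forearm and kidney of mice, was at 3.97 TPM from 41 reads in cocaine 2 and had 1 read or none in each of the other 17 libraries. HOXA11 was also highest there, at 0.75 TPM in cocaine 2 and at most 0.15 TPM elsewhere.

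The remaining members were at or near 0. HOXC13, a gene of hair and nail, had 0.11 to 0.75 TPM, lowest in control + inhibitor 2 and highest in dopamine 3. HOXB13, a gene of the prostate, reached at most 0.38 TPM, in dopamine 2, and HOXD13, a gene of the digits, at most 0.17 TPM. HOXA13, HOXC11 and HOXD12 had at most 0.06, 0.14 and 0.17 TPM in any library, and HOXC12 had 0 reads in all 18. Of the 38 members, 20 had a read in every library, 5 were at 5 TPM or more in every library (HOXA2, HOXA3, HOXB2, HOXB3 and HOXD3), and 9 stayed under 1 TPM everywhere.

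To show what lies before the starts of these genes, the 250 bases upstream of 4 RefSeq starts are printed (GRCh38.p14, 5′ to 3′ on the strand of the gene). HOXA2 is shown as a gene present in every library, and HOXA9, HOXA10 and HOXD10 as genes that were high in cocaine 2. Capitals mark matches, on either strand, to TATAAA (the TATA box), AGGTCA (a half-site of retinoid receptors), TGATNNAT (a site of PBX with HOX) or TTTATG (a site of CDX and posterior HOX proteins). TATAAA read on the other strand differs from TTTATG in its last letter only.
HOXA2, chr7:27102684-27102933, minus strand: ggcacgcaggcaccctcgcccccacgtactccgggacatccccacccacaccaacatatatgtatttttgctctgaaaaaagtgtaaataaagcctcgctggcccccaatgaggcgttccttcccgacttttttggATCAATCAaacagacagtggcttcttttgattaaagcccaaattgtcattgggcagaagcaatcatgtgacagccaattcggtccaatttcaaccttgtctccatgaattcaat
HOXA9, chr7:27165538-27165787, minus strand: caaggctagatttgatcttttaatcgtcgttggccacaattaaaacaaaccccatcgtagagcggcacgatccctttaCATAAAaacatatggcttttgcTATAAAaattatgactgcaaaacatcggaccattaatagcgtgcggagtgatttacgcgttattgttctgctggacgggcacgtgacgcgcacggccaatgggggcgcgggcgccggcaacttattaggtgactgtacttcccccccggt
HOXA10, chr7:27174321-27174570, minus strand: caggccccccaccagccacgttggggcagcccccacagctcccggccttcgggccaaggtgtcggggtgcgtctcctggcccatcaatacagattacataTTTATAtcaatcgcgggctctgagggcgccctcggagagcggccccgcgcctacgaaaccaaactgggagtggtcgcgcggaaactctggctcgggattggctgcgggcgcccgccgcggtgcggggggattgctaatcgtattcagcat
HOXD10, chr2:176116528-176116777, plus strand: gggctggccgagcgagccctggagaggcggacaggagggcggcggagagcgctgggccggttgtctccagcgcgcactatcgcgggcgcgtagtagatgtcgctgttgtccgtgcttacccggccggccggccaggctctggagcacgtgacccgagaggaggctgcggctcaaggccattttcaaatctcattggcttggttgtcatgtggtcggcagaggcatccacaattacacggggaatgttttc
HOXA2 holds 1 match to the PBX site in this stretch and overlaps the annotated gene by 3 bases. The HOXA9 stretch holds a TATA box and a TTTATG match, the HOXA10 stretch a TATA box, and the HOXD10 stretch no match. The HOXA9, HOXA10 and HOXD10 stretches lie in introns of longer transcripts in GENCODE and touch no exon. RefSeq starts were matched for 20 of the 38 members, with 27 promoters in all. HOXA3 and HOXA10 had alternative starts, and HOXC4 and HOXC5 shared the same stretch and were the only HOXC members matched. HOXB1 was the only HOXB member matched, so the promoters cover the clusters unevenly. TATAAA was in 5 of these 27 and in 10.7% of the 35116 promoters of the same length in the table, TGATNNAT in 3 and 6.47%, TTTATG in 3 and 9.64%, and AGGTCA in 0 and 12.1%. The 27 promoters had a median of 19 CG dinucleotides, and all promoters a median of 11.

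Summed over the 15 members of paralog groups 5 to 9, the 3 libraries had 4.8, 19.4 and 105 TPM with dopamine and inhibitor, 7.96, 17.9 and 5.47 TPM with dopamine, and 12.7, 11.4 and 108 TPM with cocaine and inhibitor. The sums were 18.4, 436 and 182 TPM with cocaine, 137, 5.68 and 43.6 TPM in control with inhibitor, and 66.5, 8.78 and 134 TPM in control. A sum of at least 100 TPM was reached by 6 libraries from 5 of the 6 groups, and the dopamine group had none. The highest over the lowest library of a group was 21.9-fold with dopamine and inhibitor, 3.28-fold with dopamine, 9.51-fold with cocaine and inhibitor, 23.7-fold with cocaine, 24.2-fold in control with inhibitor and 15.2-fold in control.

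**Figure D2:**
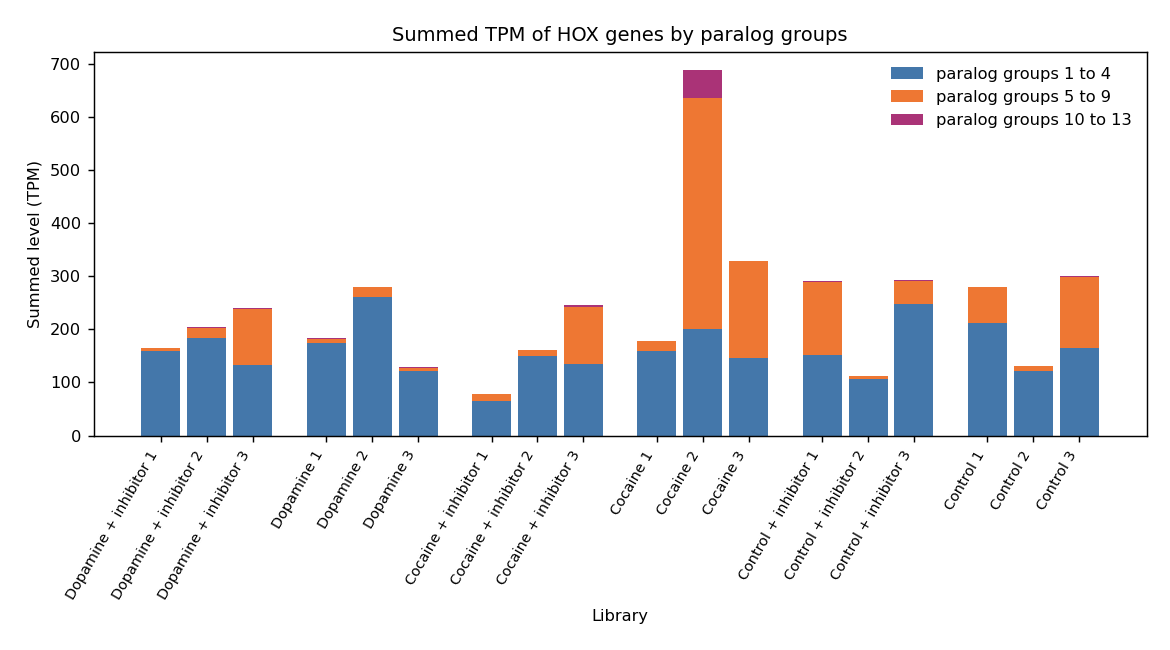
Summed TPM of the HOX genes in each library (bars, from 0), split into paralog groups 1 to 4, 5 to 9 and 10 to 13. The lowest part runs from 64.8 to 261 TPM, the middle part from 4.8 TPM in dopamine + inhibitor 1 to 436 TPM in cocaine 2, and the top part is visible in cocaine 2, where it is 52.6 TPM.

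Groups 5 to 9 made 63.3% of the summed HOX TPM in cocaine 2 and 55.4% in cocaine 3, against 10.3% in cocaine 1. In controls the shares were 23.7%, 6.69% and 44.5%. Cocaine 2 was the highest of the 18 libraries for 15 of the 15 members of these groups. With cocaine 2 set aside, the highest of the other 17 libraries was cocaine 3 for 6 members, control + inhibitor 1 for 4, dopamine + inhibitor 3 for 4 and cocaine + inhibitor 3 for 1. For groups 1 to 4, the highest library was spread over 6 libraries, with dopamine 2 highest for 3 of the 10 members that had at least 50 reads in all.

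The tail end of the expressed HOX genes also differed by library. The highest paralog group with a member at 1 TPM or more was 9 in 13 libraries. It was 11 in cocaine 2, 10 in cocaine + inhibitor 3, 7 in control 2, 5 in dopamine 3 and 4 in control + inhibitor 2. The result depends on the cut. At 2 TPM it was 4 in dopamine + inhibitor 1, dopamine 1 and dopamine 3, and 7 in dopamine 2 and cocaine + inhibitor 2. At 0.5 TPM it was 13 in dopamine + inhibitor 1, dopamine 3, cocaine + inhibitor 3, control 1 and control 3. It stayed at 11 in cocaine 2 at each cut. The number of members at 1 TPM or more was 7 in control + inhibitor 2 and 28 in cocaine 2. The HOXC cluster made 0.893% to 14.4% of the summed HOX TPM, HOXD 6.61% to 21.9%, HOXA 24.3% to 39.0% and HOXB 41.5% to 57.1%.

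**Figure D3:**
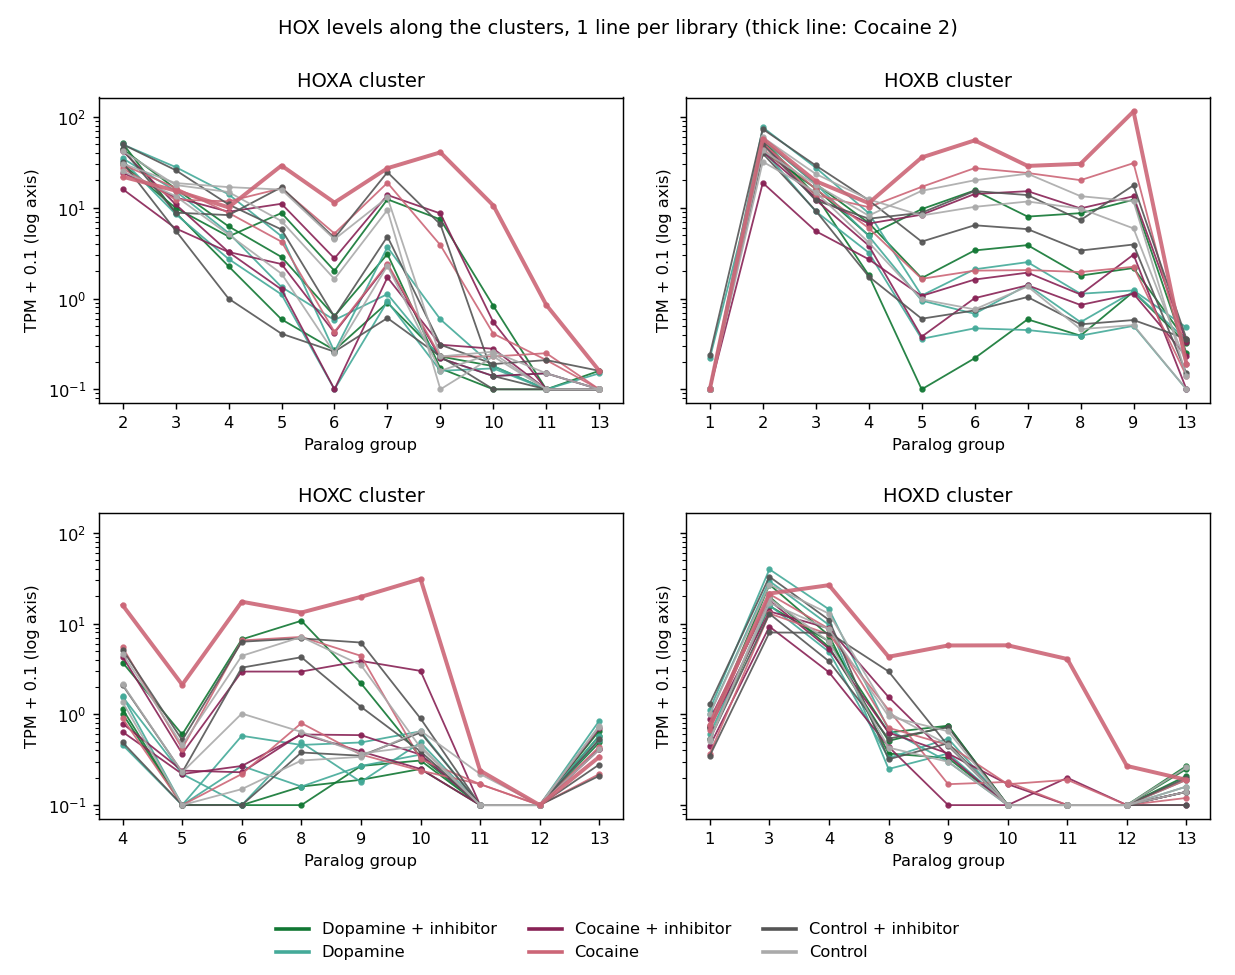
Level of each HOX gene (TPM + 0.1, log axis) by paralog group along the 4 clusters, with 1 line for each of the 18 libraries, coloured by treatment group, and cocaine 2 as the thick line. Lines lie close together at paralog groups 2 and 3 and fan out from group 5, where HOXB5 runs from 0 to 35.8 TPM.

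Ratios of TPM within a library do not depend on its depth. HOXB9 over HOXB3 was 0.134, 5.895 and 2.25 in cocaine libraries, against 0.248, 0.0278 and 0.656 in control libraries. The ratio was 0.0599, 0.041 and 0.0442 in dopamine libraries, below that of controls 1 and 3 and above that of control 2. Genes next to each other also moved unequally: HOXA9 over HOXA7 was 1.5 in cocaine 2, against 0.202 in cocaine 3 and 0.0101 in control 3, and HOXC10 over HOXC9 was 1.58 in cocaine 2, against 0.051 in cocaine 3. In control 3, HOXA7 was thus at 12.9 TPM with its neighbour HOXA9 at 0.13 TPM, and in cocaine 3, HOXC9 was at 4.31 TPM with HOXC10 at 0.22 TPM. Some of these ratios rest on few reads, so their counting error is large. HOXA9 had 2 reads in control 3, HOXC10 had 3 in cocaine 3, and HOXB9 had 9 in control 2 and in dopamine 3.

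**Figure D4:**
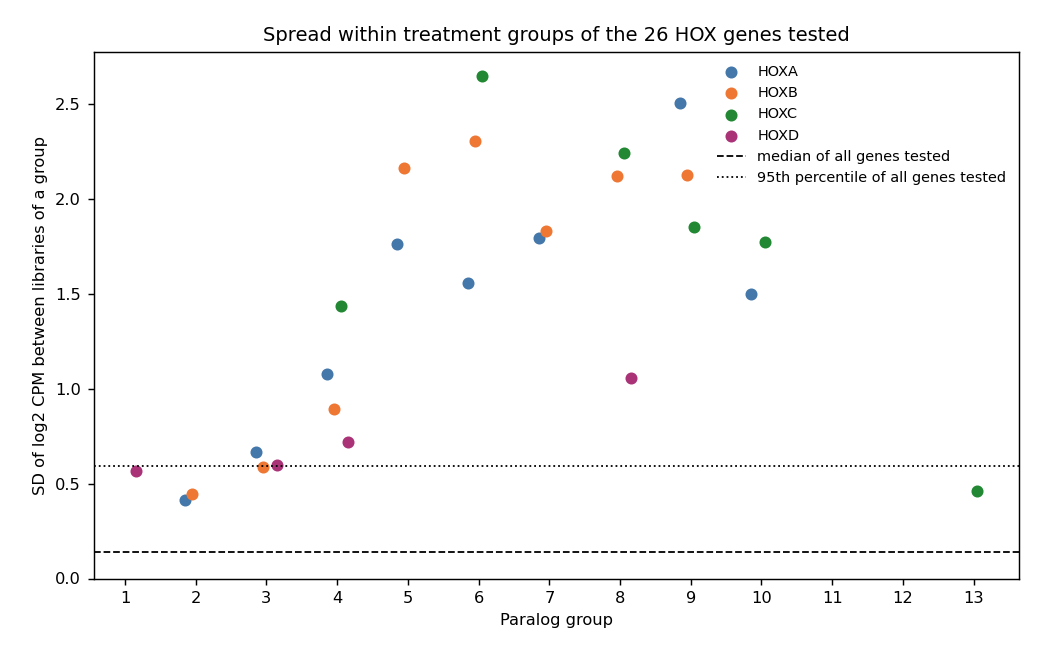
SD of log2 CPM between libraries of a group for the 26 HOX genes tested, by paralog group and cluster, with lines for the median (dashed) and the 95th percentile (dotted) of all 18913 genes tested. HOXA2 lies at 0.411 and HOXC6 at 2.65, against 0.139 and 0.593 for the lines.

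The spread within groups was set against that of other genes on CPM, counts per 1000000 reads. Of the 38 members, 26 passed the filter on low counts, and these, fitted with 1 mean per group, had a median SD of 1.53 on the log2 CPM scale between libraries of a group, while all genes tested had a median of 0.139. The SD was 0.411 to 1.44 for the 10 members of paralog groups 1 to 4 and 1.06 to 2.65 for the 13 of groups 5 to 9. The dispersion, which measures the variation beyond counting noise, was at least 4 times that of genes of like level for 24 of the 26 members, beside 3.3% of all genes tested. The exceptions were HOXC13, at 0.686 times, and HOXD1, at 1.37 times. HOXA2 had the smallest excess of the 24, at 6.38 times, and HOXB8 the largest, at 85.7 times. The count remained 24 whichever of the 18 libraries was left out, cocaine 2 included.

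With an F-test over all 6 groups (edgeR's quasi-likelihood test with Benjamini-Hochberg adjustment over 18913 genes), 0 of the 26 members were called at an adjusted p under 0.05, beside 1.4% of all genes. At an unadjusted p under 0.05 there were 3. DESeq2's likelihood ratio test called 1, HOXB9, beside 2054 of 18913 genes, with no adjusted p for 6 of the 26. The lowest adjusted p was 0.0857, for HOXA10.

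Cocaine was set against control to ask whether exposure changed HOX levels. HOXB9 averaged 37.8 ± 44.6 CPM in cocaine libraries and 4.46 ± 4.22 CPM in control libraries (SD, n = 3 each), a log2 fold change of 3.09 (SE 1.43) with an adjusted p of 0.22 in edgeR. HOXC10 averaged 5.74 ± 9.78 CPM in cocaine libraries and 0.224 ± 0.0687 CPM in controls, and HOXA10 averaged 3.27 ± 5.32 and 0.131 ± 0.0162 CPM in the same order. In both genes cocaine 2 was far above the controls. For HOXC10 the other cocaine libraries, at 0.14 and 0.22 TPM, were below the controls, at 0.33 to 0.56 TPM. For HOXA10 cocaine 1 was at 0.13 TPM and cocaine 3 at 0.31 TPM, against 0.13 to 0.16 TPM in controls. The log2 fold changes were 4.64 (SE 1.59) for HOXC10 and 4.59 (SE 1.44) for HOXA10, with adjusted p-values of 0.109 and 0.0832 in edgeR.

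edgeR called 0 of the 26 members in this comparison, beside 4.33% of all genes. At an unadjusted p under 0.05 there were 4, namely HOXA10, HOXC10 and HOXA9, which were higher with cocaine, and HOXC13, which was lower. DESeq2 called 1, HOXA9, with an adjusted p of 0.00587, beside 1651 of 18913 genes. It gave no adjusted p for 6 of the 26, among them HOXA10 and HOXC10. The median log2 fold change of the members tested was 1.13, with 19 positive and 7 negative, while that of all genes was 0.0055. Without cocaine 1, edgeR called 2 members, HOXA10 and HOXC10, beside 1121 of 19272 genes. Without cocaine 2 it called 0 members, beside 1 of 19274 genes, so calls were lost over all genes and not in HOX genes alone. The log2 fold changes without cocaine 2 were 0.57 for HOXA10, -1.16 for HOXC10 and 1.54 for HOXB9.

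Of the 26 members tested, HOXA9 alone had its 3 cocaine libraries all above the 3 controls by CPM, a pattern that 16% of all genes tested showed. The reads behind it were 2, 591 and 55 in cocaine libraries, against 0, 1 and 2 in controls, so cocaine 1 and control 3 had the same number of reads. The 648 reads of the cocaine group and the 3 reads of the control group give a ratio of 240 per total reads (95% interval 81.7 to 1170, exact, for counting error only). edgeR fitted a log2 fold change of 7.74 (SE 2.83), which depends on the prior count at so few control reads, with an adjusted p of 0.129. Without cocaine 2 the log2 fold change was 4.84. HOXA11, HOXD10 and HOXD11 had too few reads to be tested. HOXA11 and HOXD10 were also above the controls in every cocaine library, HOXA11 at 3, 14 and 2 reads with cocaine, against 0, 0 and 1 in controls, and HOXD10 at 1, 72 and 1 reads with cocaine. The 16% covers tested genes only, and no such share was taken for genes with so few reads. Against 0 reads in all 3 controls, and with a floor of 3 reads over the group, HOXD10 was at least 27.4-fold higher and HOXD11 at least 15.6-fold higher in the cocaine group, with 72 of 74 and 41 of 42 of their reads in cocaine 2.

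**Figure D5:**
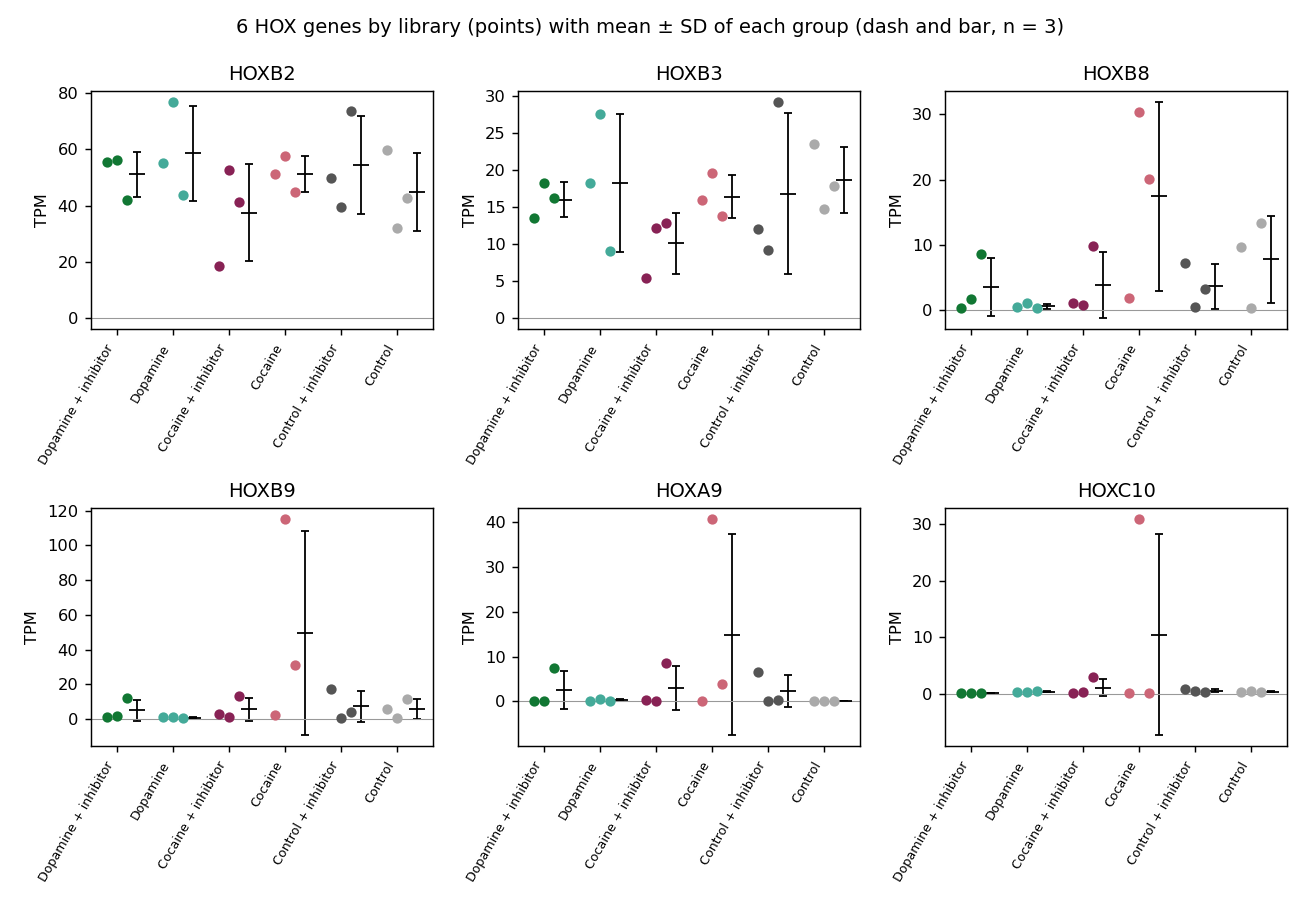
TPM of 6 HOX genes in each library (points, 3 per treatment group) with the group mean ± SD (dash and bar, n = 3). The points of HOXB2 overlap between all groups, those of HOXB3 with cocaine and inhibitor lie below those with dopamine and inhibitor, cocaine and control, and in HOXB9, HOXA9 and HOXC10 the cocaine mean rests on cocaine 2, at 115, 40.7 and 30.9 TPM.

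Dopamine libraries had low levels of paralog groups 5 to 9. HOXB8 averaged 1.21 ± 0.786 CPM in dopamine libraries and 15.9 ± 13.7 CPM in controls (SD, n = 3 each), a log2 fold change of -3.72 (SE 1.7) with an adjusted p of 0.351 in edgeR. HOXB5 averaged 0.351 ± 0.192 CPM in dopamine libraries and 4.06 ± 3.63 CPM in controls, and HOXB7 averaged 0.515 ± 0.388 and 4.58 ± 4.23 CPM in the same order. Control 2 had 0.36 TPM of HOXB8, within the 0.29 to 1.03 TPM of the dopamine libraries, and overlapped them likewise for HOXB5, HOXB6, HOXB7 and HOXB9. edgeR called 0 of the 26 members, beside 0.703% of all genes, with 1 at an unadjusted p under 0.05, HOXB8. DESeq2 called 0, with no adjusted p for 16 of the 26. The median log2 fold change was -1.12 over the members tested and -0.0028 over all genes, with 8 positive and 18 negative. HOXA10 was the only member with all 3 dopamine libraries below the controls, beside 11.8% of all genes, at 1 or 2 reads in each dopamine library and 3 or 4 in each control.

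The inhibitor alone was set against control. edgeR called 0 of 26 members beside 0% of all genes, with 1 member at an unadjusted p under 0.05, HOXC13, and 0 called by DESeq2, which gave no adjusted p for 1, HOXC10. HOXA9 had 102, 2 and 3 reads in control + inhibitor libraries, against 0, 1 and 2 in controls, a ratio of 36.8 per total reads (95% interval 12.3 to 181, exact, counting error only), and its adjusted p was 0.94 in edgeR. The median log2 fold change was -0.15 over the members tested and 0.0045 over all genes, with 11 positive and 15 negative. HOXA10 was the only member with all 3 control + inhibitor libraries below the controls, beside 5.52% of all genes, at 0 to 2 reads against 3 or 4.

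With the inhibitor in both arms, edgeR and DESeq2 called 0 of 26 members for dopamine, beside 0.00529% of all genes in edgeR, and 0 for cocaine, beside 0.0211%. DESeq2 gave no adjusted p for 1 member with dopamine and for 6 with cocaine. No member had an unadjusted p under 0.05 in edgeR in either comparison. HOXB9 averaged 4.37 ± 4.99 CPM with cocaine and inhibitor and 5.36 ± 6.66 CPM in control with inhibitor, a log2 fold change of -0.28 (SE 1.45). The median log2 fold change of the members was -0.28 for dopamine and -0.38 for cocaine, with 21 of 26 negative in each. HOXC10 was the only member with all 3 dopamine + inhibitor libraries below the control + inhibitor libraries, beside 4.41% of all genes, at 2 or 3 reads against 4 to 12. Of members not tested, HOXD13 had all 3 dopamine + inhibitor libraries above control with inhibitor by CPM, at 7, 5 and 7 reads against 2, 5 and 0. HOXD9 had all 3 cocaine + inhibitor libraries below, at 0, 4 and 4 reads against 5, 9 and 5. No share was taken for genes with so few reads. Whether the effects of dopamine and cocaine differ from those without the inhibitor was not tested.

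Adding the inhibitor to each drug gave no call either. Dopamine with inhibitor against dopamine had 0 members called, beside 0.00529% of all genes, and 0 at an unadjusted p under 0.05. HOXC10 was the only member with the 3 dopamine + inhibitor libraries below the dopamine libraries, at 2 or 3 reads against 4 to 9, beside 7.47% of all genes. HOXD13, which was not tested, had its 3 dopamine + inhibitor libraries above the dopamine libraries by CPM, at 7, 5 and 7 reads against 2, 3 and 5. The median log2 fold change of the members tested was 0.72, and in HOXC8, which had the lowest p, dopamine + inhibitor 3 was at 10.6 TPM and the other 5 libraries at 0 to 0.39 TPM. Cocaine with inhibitor against cocaine had 0 called, beside 0% of all genes, and 3 at an unadjusted p under 0.05, HOXA10, HOXC10 and HOXD4, with a median of -1.67. DESeq2 called 0 in both comparisons, with no adjusted p for 16 of the 26 members with dopamine and for 1 with cocaine. Of the members tested, HOXB3 alone had its 3 cocaine + inhibitor libraries, at 5.43 to 12.8 TPM, all below the cocaine libraries, at 13.7 to 19.6 TPM, beside 3.75% of all genes tested. HOXA11, HOXC11 and HOXD10, which were not tested, had the same order at 0 or 1 read in each cocaine + inhibitor library. These comparisons share groups with those above, so they are not independent of them.

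The authors' deposited tables list 13 HOX genes as changed. Their comparators are not named and were found from ratios of group mean TPM, with a median difference of 0.014 to 0.043 on the log2 scale for the best match. In the authors' deposited table for cocaine, 7 of 231 genes are HOX genes, all higher. The authors' deposited table gives HOXD10 and HOXA9 a log2 fold change of 7.75 each, HOXC10 with 4.65, HOXA10 with 4.6, HOXB9 with 3.08, HOXC9 with 2.66 and HOXD9 with 2.45, at a false discovery rate (FDR) of 5.38e-09 for HOXA9 and 0.03 for HOXD9. In the authors' deposited table for dopamine, 7 of 64 genes are HOX genes, all lower, from HOXA7 with a log2 fold change of -2.16 to HOXB8 with -3.71, at an FDR of 3.44e-05 for HOXB8. In the authors' deposited table HOXB5, HOXB6, HOXB7, HOXB9 and HOXC8 lie between them. In the authors' deposited table for control with inhibitor, 1 of 12 genes is a HOX gene, HOXA9 with a log2 fold change of 4.99, and the authors' deposited tables for dopamine with inhibitor and cocaine with inhibitor list 0. For HOXB9 with cocaine, the log2 fold change was 3.09 in edgeR here and 3.08 in the authors' deposited table. The calls differed: its adjusted p was 0.22 in edgeR here, and its FDR is 0.00113 in the authors' deposited table. For HOXB8 with dopamine, the adjusted p was 0.351 in edgeR here. Of the HOX genes that the authors list, HOXD9 and HOXD10 were not tested here, and edgeR called none of the others with all libraries.

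Genes that act on or with HOX proteins were described from lists, each tested in the same 7 comparisons with edgeR. The TALE cofactors, which bind DNA together with HOX proteins, had 0 of 9 members called in any comparison, with MEIS2 at a mean of 273 TPM, PBX3 at 265, PBX2 at 139 and MEIS3 at 112. Among Polycomb and Trithorax genes, 0 of 19 were called, with PHC1, RING1, BMI1 and RNF2 at means of 163, 121, 73.9 and 65.8 TPM. Their summed level was 966 to 1047 TPM over all libraries and 1023 TPM in cocaine 2. In the retinoic acid pathway 0 of the 17 genes tested were called, and CRABP1, a retinoic acid binding protein, led with 284 to 936 TPM, followed by RXRB, CYP26B1, RXRA and NRIP1 at means of 80.3, 44.2, 29.2 and 25.97 TPM. Of the caudalizing factors, 0 of 5 tested were called, and CDX2 and CDX4 were under 0.1 TPM in every library and CDX1 at most 0.17 TPM. GDF11, which opens the posterior HOX groups in the mouse trunk, was at 57.9 to 70.5 TPM, and WNT5A, WNT3A, TBX6 and NKX1-2 averaged 5.4, 2.9, 2.19 and 2.15 TPM.

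Noncoding genes of the clusters were listed beside the HOX genes. HOTAIRM1, at the front end of HOXA, had 5.93 to 26.2 TPM, HAGLR 2.63 to 15.5 TPM and HOXB-AS1 2.4 to 7.18 TPM. HOXC-AS1, HOXB-AS3, HOXA10-AS, HOXA-AS3 and HOXA11-AS were all highest in cocaine 2, at 3.36, 2.21, 0.73, 0.37 and 0.37 TPM. HOTAIR and HOTTIP, which lie at the posterior ends of HOXC and HOXA, were under 0.1 TPM in every library. None of the 3 noncoding genes tested was called in any comparison. Genes flanking the clusters had 0 of 7 called, with MTX2 at 73.2 to 99.2 TPM, CALCOCO1 at 69.04 to 82.6 TPM and SMUG1 at 19.6 to 23.3 TPM. No source used here gives the strand setting of the counting, so reads in stretches that a HOX gene shares with another gene may not be told apart. In GENCODE, which need not be the annotation counted on, whole gene spans with introns overlap another named gene for every member except HOXA2, HOXB1, HOXB13, HOXC12, HOXD12 and HOXD13. Shared exons were not counted. The authors' deposited table has a shorter HOXA9, chr7:27162438-27165530, which ends before its HOXA10 begins at 27170591.

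Other cell types were checked because trunk mesenchyme also expresses HOX genes. The 13 mesenchyme markers summed to 33.8 to 68.1 TPM with dopamine and inhibitor, 46.3 to 55.01 TPM with dopamine, 58.7 to 73.4 TPM with cocaine and inhibitor, 52.9 to 81.2 TPM with cocaine, 34.3 to 80.1 TPM in control with inhibitor and 53.2 to 57.1 TPM in control. The sum was 81.2 TPM in cocaine 3, 80.1 TPM in control + inhibitor 1, 73.4 TPM in cocaine + inhibitor 3 and 69.4 TPM in cocaine 2. It was lowest in dopamine + inhibitor 1, at 33.8 TPM, and in control + inhibitor 2, at 34.3 TPM, where the sums of paralog groups 5 to 9 were 4.8 and 5.68 TPM. Control 3 had a high HOX sum with 53.2 TPM of mesenchyme markers. Dopamine + inhibitor 2 had 68.1 TPM of these markers, near cocaine 2, with 19.4 TPM of paralog groups 5 to 9. Control + inhibitor 3 had 66.2 TPM with 43.6 TPM, and cocaine + inhibitor 1 had 60.6 TPM with 12.7 TPM, in the same order. The list was led by PDGFRB, COL1A2, COL1A1, LUM and COL3A1, at means of 21.3, 16.3, 7.96, 4.58 and 4.43 TPM, while TWIST1 was at most 1.41 TPM and PRRX1 at most 1.31 TPM. TBX18 was at 0 to 0.13 TPM. Of the 8 markers tested, 0 were called, and the part of these cells in the HOX levels was not tested.

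The 6 choroid plexus markers summed to 78.5 to 396 TPM with dopamine and inhibitor, 179 to 268 TPM with dopamine, 107 to 391 TPM with cocaine and inhibitor, 133 to 818 TPM with cocaine, 28.1 to 590 TPM in control with inhibitor and 9.61 to 93.9 TPM in control. The sum was highest in cocaine 1, where paralog groups 5 to 9 were at 18.4 TPM, and was 133 TPM in cocaine 2. TTR led with 5.16 to 762.5 TPM, before FOLR1, CLIC6, AQP1 and KCNJ13 at means of 9.85, 5.75, 3.65 and 2.79 TPM. With cocaine against control, edgeR called AQP1 higher, at a log2 fold change of 1.42 and an adjusted p of 0.0445, as well as COL2A1 of the somite, cartilage and limb list (1.39, adjusted p 0.0345) and KRT5 of the epithelium list (1.76, adjusted p 0.0363). It called DLX6 of the forebrain list (-1.05, adjusted p 0.0365) and TAL1 of the spinal list (-0.86, adjusted p 0.0306) lower. These calls stand beside 4.33% of all genes and depend on single libraries. In this comparison edgeR called 0 genes without cocaine 3, control 1 or control 2, and 1 without cocaine 2. Without cocaine 1 it called 1121, and without control 3 it called 226. The part of these cell types in the HOX levels was not tested.

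For cocaine against control the median log2 fold change was 1.13 over the HOX genes tested, 0.01 over the TALE cofactors, 0.02 over the Polycomb and Trithorax genes, 0.13 over the retinoic acid genes and 0.62 over the mesenchyme markers. For dopamine against control the same medians were -1.12, -0.07, -0.02, 0.28 and -0.04. Other lists lay as far from 0 as the HOX genes or nearly so: the choroid plexus markers had a median of 2.55 for cocaine and 1.55 for dopamine, and the forebrain list one of -0.74 for cocaine and -0.91 for dopamine.

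No further list gene was called. The somite, cartilage and limb list was led by PAX3, COL2A1, MATN4, PAX1 and MEOX2 at means of 23.99, 1.58, 0.303, 0.212 and 0.211 TPM, with TBX4 under 0.1 TPM in every library. In the skeletal muscle list MYH3, DES, ACTA1, MYOD1 and CKM averaged 2.97, 0.636, 0.609, 0.596 and 0.554 TPM, with MYF5 at 0. Neural crest and peripheral neuron genes were led by TFAP2B, TFAP2A, POU4F1 and PRPH, at 21.3, 20.1, 13.5 and 8.76 TPM, and epithelial genes by EPCAM, KRT18, KRT8, KRT5 and CDH1, at 23.7, 10.01, 8.76, 2.76 and 2.39 TPM. PTPRC, CD34, CDH5 and PECAM1 of blood and endothelium averaged 1.004, 0.0983, 0.0739 and 0.0428 TPM. DPPA4, LIN28A, POU5F1, NANOG and ZFP42, markers of pluripotency, averaged 2.76, 0.835, 0.179, 0.0244 and 0.0139 TPM.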

How the data were processed

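PolyA RNA was measured in 18 libraries of H9 organoids. The authors deposited whole-number read counts for each gene, without normalization, and TPM values, scaled by the authors per transcript length, were deposited beside them. Reads were mapped to GRCh38, per the submitters' processing notes. No source used here gives the aligner, annotation or strand setting. The deposited comparison tables hold the authors' log2 fold changes and p-values.

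Groups came from the labels' treatment field. Levels and sums are deposited TPM. Tests ran on the deposited counts of all 18913 genes that passed filterByExpr (minimum count 10), with TMM factors and edgeR 4.0.16's robust quasi-likelihood F-test in R 4.3.3, 1 mean for each of 6 groups, 7 comparisons and Benjamini-Hochberg adjustment over all genes, with a call at an adjusted p under 0.05. CPM are counts per 1000000 of the TMM-scaled library. Alternatives were DESeq2 1.42.0, RLE factors, a fit of only the 2 groups compared, no filter, and leaving out each library in turn. The method was tested on simulated data. The counts held 23789195 to 30327891 reads per library, so 3 reads in the shallowest were 0.126 CPM, and counting error alone is large for members with a few reads. Coordinates come from GENCODE on GRCh38.

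Members and lists were chosen with earlier results of these data known. Members that reached 5 TPM in a library have every value printed, and others a range. From each other list, genes called, the 5 with the highest mean TPM and those under 0.1 TPM everywhere are named. Some genes that this rule names are not reported here. A second cell line in the design text was not analysed here.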

Additional observations from a re-analysis of the deposited data

How the results depend on the processing

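The count of HOX genes called was 0 in every comparison under RLE factors, a fit of only the 2 groups compared, and no filter on low counts. DESeq2 called 1 HOX gene for any difference among the 6 groups (HOXB9) and 1 for cocaine against control (HOXA9), and 0 in the other 6 comparisons, with HOXC10 set aside as a count outlier in all 7. It gave no adjusted p for 1 to 16 of the 26 members in a comparison, and these could not be called. Leaving out 1 library at a time gave 0 to 1 for any difference (1, HOXA10, without cocaine 1) and 0 to 2 for cocaine against control (2, HOXA10 and HOXC10, without cocaine 1, at adjusted p-values of 0.0318 and 0.0444 in edgeR). It gave 0 in the other 6. Without cocaine 1, the genes called among all 19272 were 420 for any difference and 1121 for cocaine. The cause of these moves was not tested. The count of HOX genes with a dispersion of at least 4 times the trend was 24 without any single library and 28 without the filter. Over all genes, DESeq2 called 493 for dopamine, 1651 for cocaine and 2054 for any difference, against 133, 818 and 264 in edgeR. It called 6 for the inhibitor alone, 10 and 307 for dopamine and cocaine with the inhibitor in both arms, and 33 for dopamine with inhibitor against dopamine, against 0, 1, 4 and 1 in edgeR. The fit of 2 groups called 540 for dopamine, 1583 for cocaine, 0 for cocaine with the inhibitor in both arms and 3 for dopamine with inhibitor against dopamine. No filter gave 543 for any difference, and 9 and 3 for the last 2. Leaving out 1 library gave 7 to 100 for dopamine, 0 to 1121 for cocaine, 33 to 1629 for any difference, 0 for dopamine and 2 to 1276 for cocaine with the inhibitor in both arms, and 0 to 1 for dopamine with inhibitor against dopamine. No paired analysis was possible because the labels carry no replicate number shared between groups. Depth limits HOXA9, HOXA10 and HOXC10, which had under 10 reads in most libraries.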
